A study of Macaca fascicularis with 6 samples.

Results

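The genes described here are 38 genes of the extracellular matrix of the liver and of the stellate and other mesenchymal cells that make it: collagen chains, small proteoglycans and matrix glycoproteins, the enzymes and inhibitors that cross-link and turn over the matrix, receptors and markers of those cells, and the signals TGFB1 and CCN2. A probe set, the group of short probes that reads a transcript on an Affymetrix array, was taken for a gene only where that gene was its single annotated symbol. All 38 genes had at least 1 such probe set and 116 between them, out of 19775 genes named in this way. Unless a probe set is specified, a gene is given by its probe set with the highest mean signal over all arrays. By that choice 36 of the 38 genes were bright enough to be tested, among 13349 tested genes, while COL14A1 and COL15A1 were not.

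The arrays had been hybridised with total RNA from liver tissue of cynomolgus macaques (Macaca fascicularis), 1 animal on each. The 3 controls had received vehicle and the 3 treated animals a ligand of LXR, the liver X receptor, labelled GW in the array titles. The identity, dose and duration of the ligand, and the age and sex of the animals, are not given in the sources used here. LXR is a nuclear receptor that binds oxidised forms of cholesterol and drives the export of sterols and the making of lipids.

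Hepatic stellate cells lie between the hepatocytes and the sinusoids, where they store vitamin A. When the liver is injured they turn into myofibroblasts, which secrete fibrillar collagens and express smooth muscle actin. Transforming growth factor beta is the best known signal for collagen synthesis in these cells, and connective tissue growth factor, the product of CCN2, is one of its targets. Several of the genes are not private to stellate cells: hepatocytes secrete fibronectin, and endothelial cells make chains of the basement membrane.

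With the ligand, 30 of the 36 tested genes had a higher mean and 6 a lower one. The median log2 difference, ligand minus vehicle on the scale of log2(signal + 16), was 0.41 over these genes and 0.0027 over all tested genes. All 3 ligand arrays lay above all 3 vehicle arrays for 11 of the 36 genes (30.6%), against 6.21% of all tested genes, and below them for 2, against 5.21% of all tested genes. The 11 genes were COL3A1, COL5A1, COL6A2, COL6A3, COL4A1, LAMB1, FBN1, SPARC, TIMP2, RELN and TGFB1, and the other two were COL1A1, on its brightest probe set, and CCN2. A log2 difference of at least 0.5 was found for 16 of the 36 genes (44.4%) and for 12.0% of all tested genes. A higher mean alone was found for 83.3% of the 36 genes and for 50.3% of all tested genes. The counts of 30 and 16 include FBLN1, which reached the limit for testing only through its ligand arrays.

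None of the 36 genes passed limma's moderated test with p adjusted over the 27304 probe sets tested. The same test called 0 of all tested genes, which is 0% of them, and 0% of all probe sets. The smallest adjusted p among the 36 was 0.387, for SPARC. Before adjustment limma gave a p under 0.05 for 15 of the 36 genes, 14 of them higher with the ligand and 1 lower. The same held for 6.12% of all tested genes, 3.70% higher and 2.42% lower. The count of 15 was 8 without ligand array 3 and 9 without vehicle array 1 or without vehicle array 2. Leaving out an array weakens the test for every gene, and the share of all tested genes in these settings is not given here. With all 6 arrays the count was 10 without the intensity trend, 11 under median centring and 16 with the replicate number as a block. The genes were picked as a group with earlier results of these data known, so these counts describe the genes and are no test of them.

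**Figure D1:**
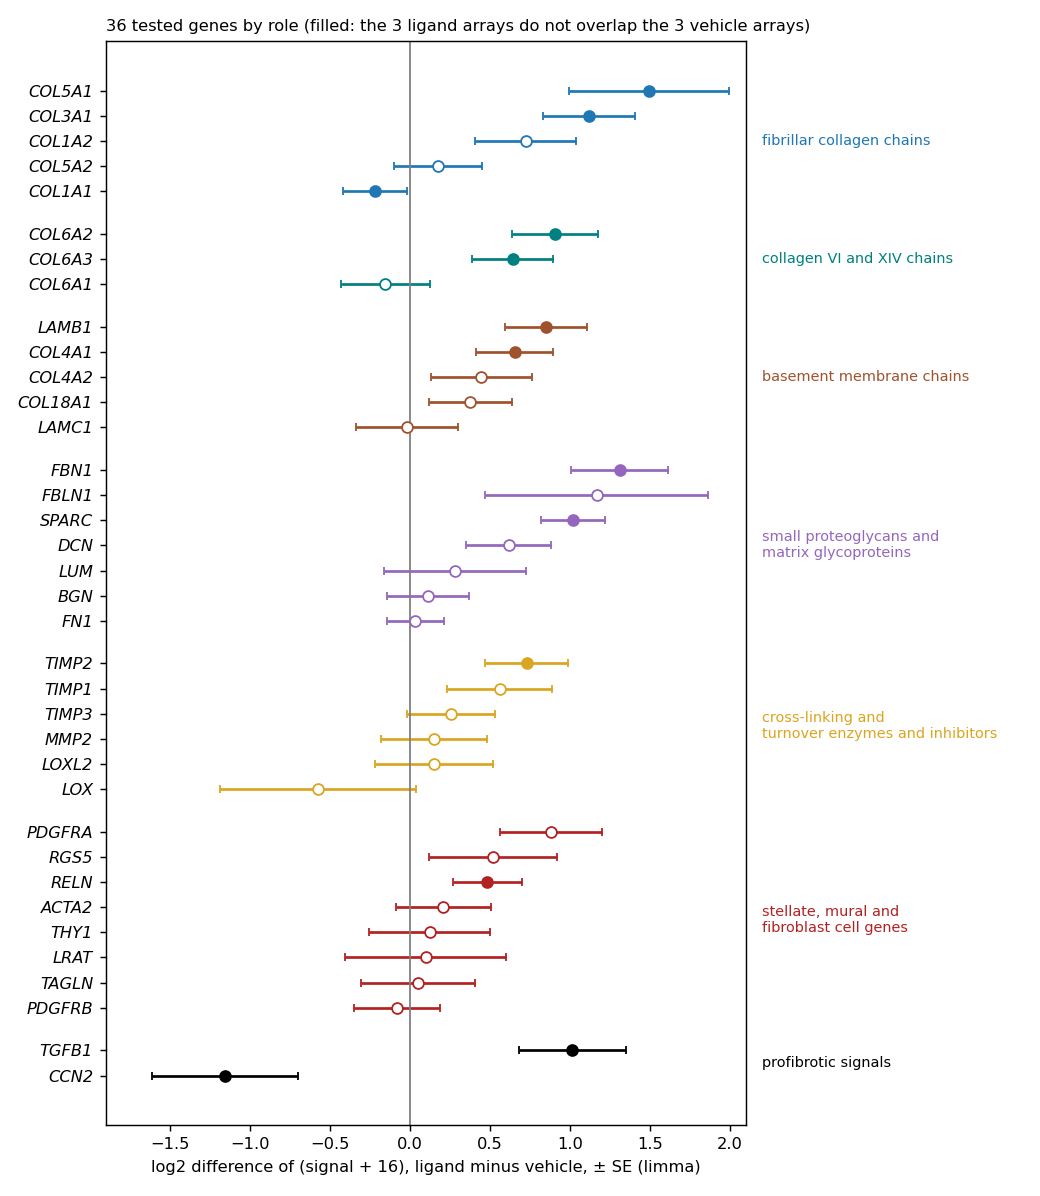
Log2 difference of each of the 36 tested genes, ligand minus vehicle, with its limma standard error (3 arrays per group), sorted by role; a filled point marks a gene whose ligand and vehicle arrays do not overlap. The differences run from -1.15 for CCN2 to 1.49 for COL5A1, and 30 of the 36 lie to the right of 0.

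The fibrillar collagens assemble into the rope-like fibrils that give scar tissue its strength. Type III fibrils are built from the COL3A1 chain alone. On the brightest COL3A1 probe set, 215076_s_at, the signal was 6163, 3709 and 4936 in vehicle animals 1 to 3, whereas the ligand animals 1 to 3 had 12815, 6790 and 13340. The groups did not overlap, with ligand array 2 closest to them. The mean went from 4936 ± 1227 to 10982 ± 3640 (SD, n = 3 in each), a difference of 1.12 ± 0.29 (SE) on the log2 scale with a limma adjusted p of 0.710.

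The other COL3A1 probe sets leaned the same way with different margins. On 201852_x_at the signal was 1833, 754 and 1398 with vehicle and 3172, 1972 and 4237 with the ligand, again without overlap. Its log2 difference was 1.25 ± 0.36 (SE), at limma adjusted p = 0.827. On 211161_s_at the signal was 1592, 479 and 547 with vehicle and 1374, 843 and 2112 with the ligand. There vehicle array 1 stood above 2 of the 3 ligand arrays, and the log2 difference was 0.83 ± 0.46 (SE), which became 0.51 without ligand array 3 and 1.37 without vehicle array 1. The dimmer 232458_at had 194, 223 and 229 with vehicle and 238, 378 and 427 with the ligand, groups that only just failed to meet, and a log2 difference of 0.62 ± 0.34 (SE). The remaining probe set, 215077_at, was too dim to be tested, with 7.87, 112 and 32.3 against 105, 18.7 and 73.0, which overlap throughout. Ligand array 3 was the highest array on the 4 tested COL3A1 probe sets.

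COL1A1 encodes the major chain of type I collagen, and here its probe sets did not tell the same story. The brightest, 217430_x_at, gave 2129, 2003 and 1991 with vehicle and 1549, 1909 and 1817 with the ligand. The ligand arrays were all lower, by little: the log2 difference was -0.22 ± 0.20 (SE), at limma adjusted p = 0.935, or -0.13 without ligand array 1. In Affymetrix naming the letter x marks a probe set with probes that may also bind other transcripts. The COL3A1 probe set 201852_x_at carries it too, as do the brightest probe sets of DCN, FN1 and BGN.

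The next COL1A1 probe set, 1556499_s_at, gave 430, 555 and 383 with vehicle and 1165, 1160 and 2204 with the ligand. Its lowest ligand array was well above its highest vehicle array. The mean went from 456 ± 88.7 to 1510 ± 601 (SD, n = 3 in each), a difference of 1.64 ± 0.30 (SE) on the log2 scale with a limma adjusted p of 0.387. On 202310_s_at the signal was 35.0, 522 and 232 with vehicle and 499, 489 and 923 with the ligand. Vehicle array 2 overlapped the ligand arrays there, and vehicle array 1 was far below all others. That log2 difference was 1.72 ± 0.71 (SE), or 0.78 without vehicle array 1.

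Neither of the dim COL1A1 probe sets was tested. On 202311_s_at the signal was 43.3, 59.2 and 77.6 with vehicle and 78.3, 128 and 163 with the ligand. On 202312_s_at it was 41.4, 44.5 and 42.2 with vehicle and 207, 28.3 and 51.6 with the ligand, so that ligand array 1 alone carried the higher mean. The direction of COL1A1 therefore depends on the probe set. Averaging its 3 tested probe sets on the log2 scale gave a difference of 1.05 in place of -0.22.

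**Figure D2:**
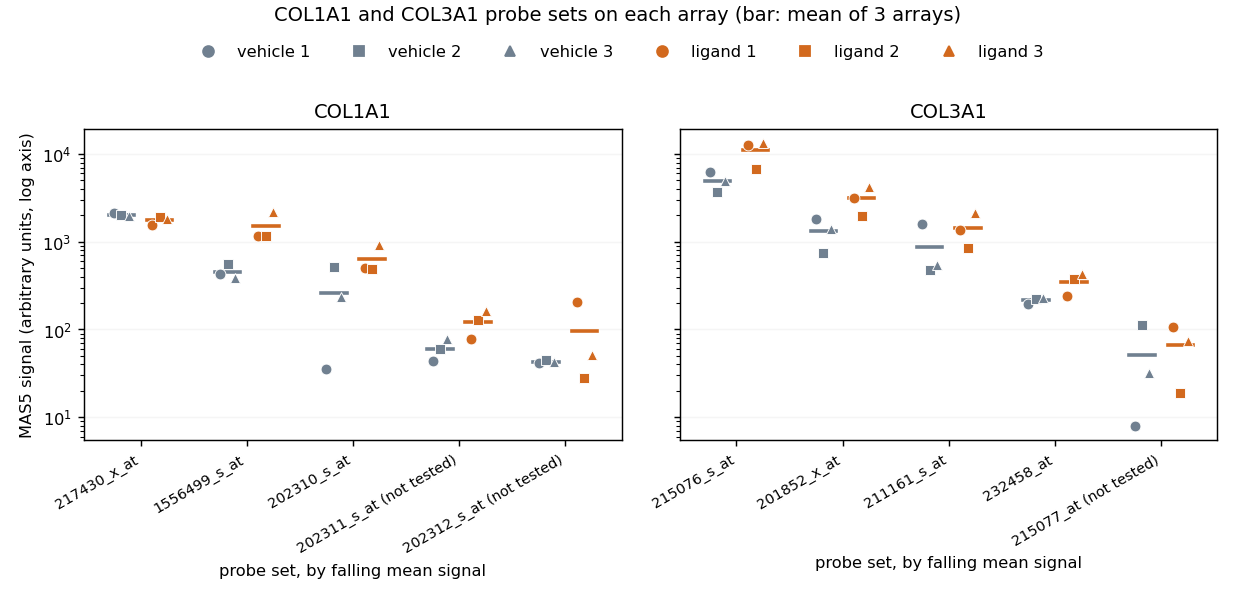
Signal of every COL1A1 and COL3A1 probe set on each of the 6 arrays, on a log axis, with a bar at the mean of the 3 arrays of a group. The brightest COL1A1 probe set sits between 1549 and 2129 on all arrays with the ligand arrays lowest, while the next one lies at 383 to 555 with vehicle and 1160 to 2204 with the ligand; the ligand arrays of the brightest COL3A1 probe set lie above its vehicle arrays.

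COL1A2 encodes the second chain of type I collagen. Its signal was 1788, 825 and 1259 with vehicle and 2015, 1545 and 2732 with the ligand, a log2 difference of 0.72 ± 0.31 (SE). Leaving out vehicle array 2 brought it to 0.44. Vehicle array 1 lay above ligand array 2, so the groups overlap. A further COL1A2 probe set gave 0.74 and the dimmest tested one -0.28.

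COL5A1 encodes a chain of type V collagen, which sets the diameter of type I fibrils. It was dim, with 146, 225 and 50.1 under vehicle and 278, 460 and 395 under the ligand. The groups did not overlap, and vehicle array 3 was the lowest by far. The log2 difference was 1.49 ± 0.50 (SE), at limma adjusted p = 0.829, or 0.97 without vehicle array 3. COL5A2, another chain of type V, had a log2 difference of 0.18 ± 0.28 (SE), which became -0.044 without ligand array 3. Of the 5 fibrillar chains 4 had a higher mean, with a median log2 difference of 0.72.

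Collagen VI forms beaded filaments around cells, and collagen XIV sits on the surface of fibrils. For COL6A2 the signal was 420, 340 and 565 with vehicle and 731, 822 and 931 with the ligand. The lowest ligand array was above the highest vehicle array, and the log2 difference was 0.91 ± 0.27 (SE), at limma adjusted p = 0.829. A second COL6A2 probe set had a log2 difference of 0.20. For COL6A3 the signal was 954, 686 and 992 with vehicle and 1459, 1093 and 1582 with the ligand, without overlap. Its log2 difference was 0.64 ± 0.25 (SE), at limma adjusted p = 0.873.

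COL6A1, the remaining chain of this filament, had 524, 362 and 550 with vehicle and 472, 372 and 430 with the ligand, which overlap. Its log2 difference was -0.15 ± 0.28 (SE), while its 3 dimmer tested probe sets were higher with the ligand, up to 0.67. COL14A1 was below the limit for testing on each of its probe sets. Its brightest had 11.8, 17.4 and 25.4 under vehicle and 101, 124 and 81.5 under the ligand, and another had 26.2, 12.1 and 13.3 against 71.2, 75.3 and 74.5. On both of these the ligand arrays were all higher. The remaining COL14A1 probe sets went opposite ways. One log2 difference was 0.62, with overlapping groups. The other was -0.95, with all ligand arrays below all vehicle arrays.

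Basement membranes are sheets of type IV collagen and laminin, and a loose form of them lines the sinusoids. COL4A1 encodes the main type IV chain. Its signal was 2363, 2868 and 2381 with vehicle and 3506, 3243 and 5599 with the ligand, without overlap and with ligand array 3 far above the others. The log2 difference was 0.66 ± 0.24 (SE), at limma adjusted p = 0.840, or 0.41 without ligand array 3. A second, dimmer COL4A1 probe set had a log2 difference of 0.080.

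LAMB1 encodes the beta 1 chain of laminin. It gave 449, 390 and 568 with vehicle and 760, 837 and 962 with the ligand, again without overlap. This was a log2 difference of 0.85 ± 0.25 (SE), with a limma adjusted p of 0.829, and 0.48 on a second probe set. The gamma 1 chain LAMC1, its partner in the same molecule, had 666, 1163 and 1392 against 747, 1146 and 1211, with a log2 difference of -0.019 ± 0.32 (SE).

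The other type IV chain, COL4A2, had a log2 difference of 0.45 ± 0.32 (SE) and overlapping groups. COL18A1, the parent protein of endostatin that hepatocytes also make, had 0.38 ± 0.26 (SE). Its highest value, 16937 on ligand array 1, stood apart from 7180 to 11287 on the other 5 arrays, and without that array the difference was 0.12. COL15A1, a collagen of vessel walls, was too dim to be tested, with 85.3, 7.46 and 2.63 with vehicle and 26.4, 43.0 and 134 with the ligand. In this group 4 of 5 tested genes had a higher mean, with a median log2 difference of 0.45.

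Matrix glycoproteins and small proteoglycans organise the fibrils and bind growth factors. SPARC, a collagen-binding protein that cells secrete while laying down matrix, had the smallest p of the 36 genes. Its signal was 1470, 1488 and 1830 with vehicle and 2987, 3176 and 3559 with the ligand. The groups were far apart, and all 3 ligand arrays were close together. The mean went from 1596 ± 203 to 3240 ± 291 (SD, n = 3 in each), a difference of 1.02 ± 0.20 (SE) on the log2 scale with a limma adjusted p of 0.387. With each array left out in turn it ran from 0.95 to 1.12. A second and much dimmer SPARC probe set had a log2 difference of 0.025.

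FBN1 encodes fibrillin 1, the backbone of microfibrils, which also hold latent transforming growth factor beta. Its signal was 874, 459 and 817 with vehicle and 2317, 1413 and 1599 with the ligand. The groups did not overlap, and the log2 difference was 1.31 ± 0.30 (SE), at limma adjusted p = 0.561. A second tested FBN1 probe set had 0.55.

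FBLN1, a glycoprotein of elastic fibres and basement membranes, had 80.9, 68.9 and 63.4 with vehicle and 311, 293 and 57.6 with the ligand. Ligand arrays 1 and 2 were thus high and ligand array 3 the lowest of all 6, and the log2 difference was 1.17 ± 0.70 (SE), or 1.87 without ligand array 3. The vehicle mean, 71.0, was below the limit of 129 for testing. FBLN1 was thus tested only through those high ligand arrays, and its higher mean was fixed by that limit. Its untested probe sets had log2 differences of 0.68, 0.84, -1.26 and -0.26. Decorin, the product of DCN, coats collagen fibrils and is plentiful in quiescent stellate cells. Its signal was 13368, 8351 and 15147 with vehicle and 14196, 17663 and 24392 with the ligand. Ligand array 1 fell inside the vehicle range, and the log2 difference was 0.62 ± 0.26 (SE), with 0.48 to 0.62 over the 4 tested DCN probe sets. Without vehicle array 2 it was 0.36. The related proteoglycans LUM and BGN had 0.28 ± 0.44 and 0.12 ± 0.25 (SE).

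FN1 encodes fibronectin, which hepatocytes release into plasma in large amounts. Its brightest probe set gave 123690, 162665 and 106497 with vehicle and 141853, 120399 and 134530 with the ligand. The groups overlapped fully, and the log2 difference was 0.034 ± 0.18 (SE). This value turned to -0.0040 under quantile normalization, to -0.0098 under median centring, to -0.10 without vehicle array 3 and to -0.019 without ligand array 1. Of the other very bright FN1 probe sets 211719_x_at had 0.12, 216442_x_at -0.047 and 212464_s_at -0.029. FN1 also had a narrow spread, with its highest array 1.53-fold above its lowest. A dim FN1 probe set, 214701_s_at, had a log2 difference of 1.20. All 7 genes of the glycoprotein and proteoglycan group had a higher mean, with a median log2 difference of 0.62. Of these, FN1 turned in the settings just named, and FBLN1 was tested only through its high ligand arrays.

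Cross-linking enzymes of the LOX family stiffen collagen, MMP2 degrades its unwound form, and the TIMP proteins inhibit such proteases. TIMP2 gave 1284, 1685 and 1780 with vehicle and 1843, 3098 and 3118 with the ligand. Ligand array 1 lay just above the vehicle arrays and the other two ligand arrays far above. Its log2 difference was 0.73 ± 0.26 (SE), at limma adjusted p = 0.829, and a second probe set had 0.75.

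TIMP1, the inhibitor most often linked to liver fibrosis, had 1041, 834 and 1823 with vehicle and 1324, 1579 and 2465 with the ligand. Vehicle array 3 lay above 2 of the ligand arrays, and the log2 difference was 0.56 ± 0.33 (SE). It was 0.31 without ligand array 3 and 0.88 without vehicle array 3. TIMP3 had 0.26 ± 0.27 (SE) on its brightest probe set. Its other tested probe sets had 0.28, 0.26 and -1.18, and the mean over all 4 tested TIMP3 probe sets was -0.096. The -1.18 ± 0.39 (SE) was that of 201150_s_at, with 268, 350 and 468 with vehicle and 111, 220 and 129 with the ligand. This was the only tested TIMP3 probe set without overlap, with all ligand arrays lower.

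LOX was the only gene of this group with a lower mean, at -0.58 ± 0.61 (SE), and its arrays ranged 6.45-fold. LOXL2 and MMP2 had log2 differences of 0.15 ± 0.37 and 0.15 ± 0.33 (SE). On ligand array 3 the MMP2 signal was 1212, against 540 to 777 on the other 5 arrays, and without that array the difference was -0.21. The median log2 difference of the group was 0.20, with 5 of 6 genes higher.

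The genes that mark stellate cells, pericytes and fibroblasts were mixed. PDGFRA, a receptor for platelet-derived growth factor found on stellate cells and fibroblasts, had 2190, 2172 and 3483 with vehicle and 3086, 4581 and 7365 with the ligand. Vehicle array 3 exceeded ligand array 1, and ligand array 3 was far above the rest. The log2 difference was 0.88 ± 0.32 (SE), at limma adjusted p = 0.833, or 0.56 without ligand array 3. PDGFRB, the sister receptor that rises in activated stellate cells, had 410, 491 and 372 against 354, 454 and 393, a log2 difference of -0.078 ± 0.27 (SE).

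Reelin, the product of RELN, is a secreted protein that stellate cells make in the liver. RELN had 4589, 3388 and 5200 with vehicle and 5793, 5474 and 7017 with the ligand. The ligand arrays were all above the vehicle arrays by a narrow margin. The log2 difference was 0.49 ± 0.21 (SE), at limma adjusted p = 0.880, or 0.31 without vehicle array 2. LRAT, the enzyme that esterifies retinol for storage in quiescent stellate cells, had 152, 85.5 and 166 against 138, 122 and 163. Its log2 difference was 0.099 ± 0.50 (SE).

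The contractile genes of myofibroblasts and smooth muscle overlapped between the groups. ACTA2, alpha smooth muscle actin, had 517, 427 and 657 with vehicle and 542, 493 and 849 with the ligand, a log2 difference of 0.21 ± 0.30 (SE). TAGLN, an actin-binding protein of the same cells, had 1314, 913 and 1593 against 757, 1378 and 2041, a log2 difference of 0.053 ± 0.36 (SE). Without ligand array 3 both had the opposite sign, at -0.023 for ACTA2 and -0.28 for TAGLN.

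RGS5, a regulator of G proteins in pericytes, had 0.52 ± 0.40 (SE). The value of ligand array 2, 3476, was the highest, and without it the difference was 0.11. Besides, 1 of its 5 tested probe sets had -1.26. THY1, a surface protein of portal fibroblasts, had 0.13 ± 0.38 (SE). Another THY1 probe set, 208850_s_at, gave 1.91, from signals of 21.1, 44.5 and 122 with vehicle and 168, 296 and 271 with the ligand. Its vehicle mean, 62.5, was below the limit for testing, so it was tested only through its ligand arrays. Of these 8 genes 7 had a higher mean, with a median log2 difference of 0.17.

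The 2 signals went opposite ways. TGFB1 had 166, 156 and 156 with vehicle and 376, 279 and 370 with the ligand. The vehicle arrays were almost equal and all ligand arrays were above them. The log2 difference was 1.02 ± 0.33 (SE), at limma adjusted p = 0.829. A dimmer TGFB1 probe set that was not tested had 58.2, 196 and 104 against 15.6, 134 and 263, which overlap.

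CCN2 had 349, 392 and 217 with vehicle and 165, 190 and 68.7 with the ligand. All 3 ligand arrays were below the vehicle arrays, and ligand array 3 was the lowest. The ligand group was 2.22-fold lower, and the log2 difference was -1.15 ± 0.46 (SE), at limma adjusted p = 0.873. Without ligand array 3 it was -0.76. CCN2 has a single probe set here.

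Of the 23 genes with more than 1 tested probe set, all probe sets were higher for 16, all were lower for 1, which was LAMC1, and 6 had both directions: COL1A1, COL1A2, COL6A1, FN1, TIMP3 and RGS5. Over all 79 tested probe sets of the 36 genes, 67 had a higher mean under the ligand and 12 a lower one. By genes, at 1 probe set each, a higher mean was found for 50.3% of all tested genes, and the share of all tested probe sets is not given here. The median log2 difference of the 79 probe sets was 0.29, against 0.0032 over all tested probe sets. Probe sets of the same gene are not independent counts, and some of the 67, such as 208850_s_at of THY1, were tested only through their ligand arrays.

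The arrays did not contribute alike. Ligand array 3 held the highest value for 17 of the 36 genes, and for 18.0% of all tested genes. The other 5 arrays held the highest value for 3 to 5 genes each. Vehicle array 2 held the lowest value for 16 of the 36 and for 17.4% of all tested genes. The median deviation of the 36 genes from their own mean was -0.22, -0.34 and -0.13 (log2) in vehicle animals 1 to 3, against 0.058, 0.13 and 0.54 in ligand animals 1 to 3. Over all tested genes it lay between -0.022 and 0.050. Without ligand array 3, 25 of the 36 genes were higher, the median log2 difference was 0.30, and 12 genes were higher without overlap, against 10.8% of all tested genes. Without ligand array 1 the count of higher genes was 31 and the median 0.50. For 28 of the 36 genes, leaving out at least 1 array moved the log2 difference by over 1.5 times or turned its sign. The other 8 were COL3A1, COL6A2, COL6A3, LAMB1, FBN1, SPARC, TIMP2 and TGFB1. The share of all tested genes moved in this way is not given here, and a small difference passes such a limit easily. The count of 28 therefore does not set these genes apart from others.

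**Figure D3:**
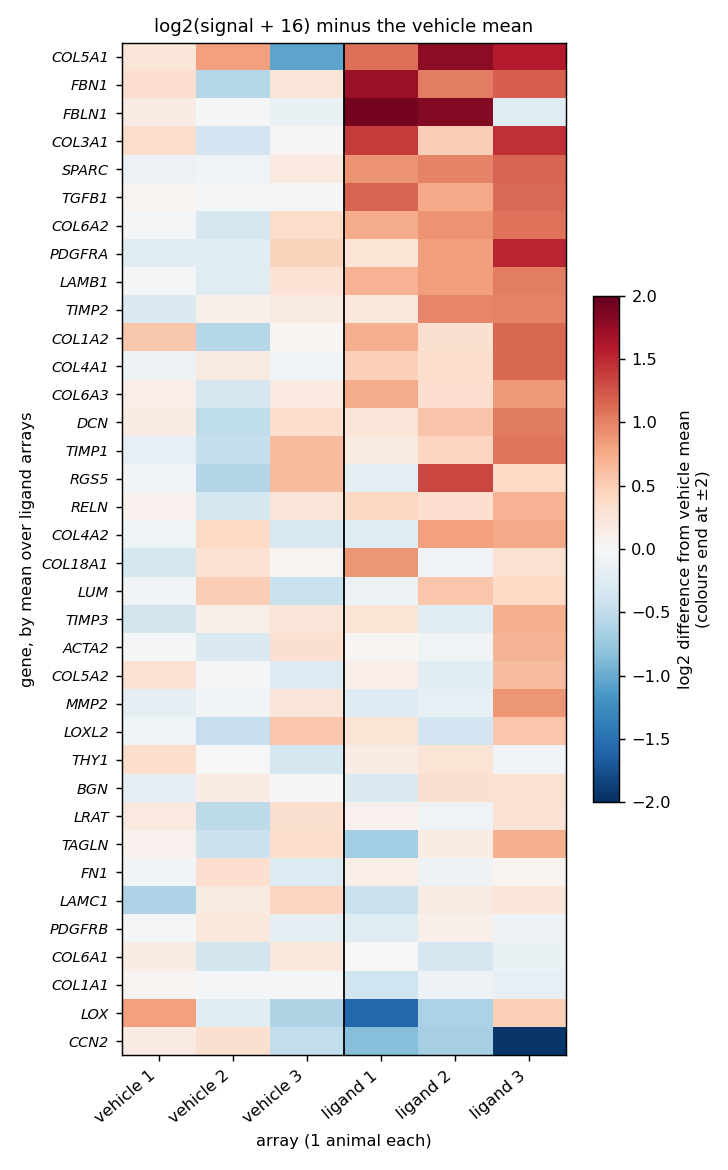
Each cell is the log2(signal + 16) of a gene on an array minus its mean over the 3 vehicle arrays, for the 36 tested genes sorted by their mean over the ligand arrays. The column of ligand array 3 is high for most genes, COL5A1, FBN1 and COL3A1 are high on all 3 ligand arrays, and CCN2 is low on all 3.

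Ligand array 3 also differed in a measure of RNA quality, the ratio of signal at the 3′ end of a control transcript to that at its 5′ end, which grows as RNA breaks down. For ACTB the log2 ratio was 2.15, 2.50 and 3.06 on the vehicle arrays, 2.62 and 2.65 on ligand arrays 1 and 2 and 4.0 on ligand array 3. For GAPDH it was 0.991 to 1.70 with vehicle and 1.17 to 2.05 with the ligand, highest on ligand array 3. Both ratios overlapped between the groups (exact two-sided permutation test, p = 0.4 for ACTB and 0.6 for GAPDH, where 0.1 is the smallest possible with 3 against 3). Ligand array 1 stood apart on the first principal component of all tested probe sets, at -89.8 against 0.632 to 36.8. The part of RNA quality in the values of ligand array 3 was not tested.

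A piece of liver is a mixture, and from bulk RNA more cells of a type cannot be told apart from more RNA per cell. Markers of hepatocytes, 5 of 10 higher and 5 lower, summed to 741158 to 869692 per array with vehicle and 786456 to 851205 with the ligand. Markers of macrophages and Kupffer cells were higher on the same arrays: all 8 tested of 9 had a higher mean with the ligand, and their summed signal was 5614 to 8320 with vehicle and 12769 to 13773 with the ligand. The 3 ligand arrays were close to each other in these markers, at 0.93, 0.92 and 0.79 above the vehicle mean (log2), whereas in the matrix genes ligand array 3 stood above the other two. No marker of these lists was at 0. The part of macrophage content in the values of the matrix genes, among them TGFB1, which macrophages also make, was not tested.

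Markers of stellate cells outside the 38 genes, such as HHIP and COLEC11, were higher for 7 of 8 tested of 10, with a median log2 difference of 0.32. Their summed signal was 11124 to 13584 with vehicle and 12790 to 21182 with the ligand, and the highest value was on ligand array 3. None of the 8 was free of overlap between the groups, where 6.21% of all tested genes were higher and 5.21% lower without overlap. The lower one was DES, at -0.97 ± 0.68 (SE), and the mean log2 difference of the list was 0.19. Endothelial markers, which can share the basement membrane chains, were higher for 9 of 10, and summed to 11102 to 13429 with vehicle and 11590 to 14958 with the ligand. The exception was VWF, which encodes von Willebrand factor, a clotting protein of endothelium, with 4667, 2129 and 1340 against 157, 156 and 377 (log2 difference -3.39 ± 0.47 (SE), limma adjusted p = 0.319). Without VWF, left out after its values were seen, the other 9 summed to 8762 to 10378 with vehicle and 11434 to 14581 with the ligand, without overlap. Among them CDH5, LYVE1 and ENG had all ligand arrays above all vehicle arrays, as had 6.21% of all tested genes. VWF was the only marker of the list that went the other way, so the gap without it is no test. With VWF, the exact two-sided permutation test on the mean log2 level of all 10 gave p = 0.9. The part of endothelial content in the values of the matrix genes was not tested. Smooth muscle markers were higher for 3 and lower for 2 of 5 tested of 7, at 9020 to 15789 against 12586 to 15787, with DES among the lower ones and shared with the stellate list. The 3 tested of 7 markers of portal fibroblasts and mesothelium were all higher, at 1707 to 2628 against 2199 to 3206.

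The remaining marker lists were thin. Of the cholangiocyte markers 1 was higher and 2 lower of 3 tested of 5, at 768 to 1314 against 567 to 1586. The T and NK cell markers had 2 higher and 1 lower of 3 tested of 6, at 603 to 1152 against 530 to 1086. The 2 tested of 5 red blood cell markers were both lower, at 1087 to 11193 with vehicle and 658 to 994 with the ligand, and the 11193 was on vehicle array 1. Of these markers, SLC4A1 had a ligand mean of 127, also below that limit. It was tested only through its vehicle arrays, so its lower mean was fixed by the limit. For the mean log2 level of a list, the exact two-sided permutation test reached the smallest possible p of 0.1 for the macrophage and red blood cell lists (0.45 after Benjamini-Hochberg adjustment over the 9 lists), and gave p = 0.3 to 0.9 for the other lists. The lists were chosen with earlier results of these data known, so these p values describe the lists and are no test of them.

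**Figure D4:**
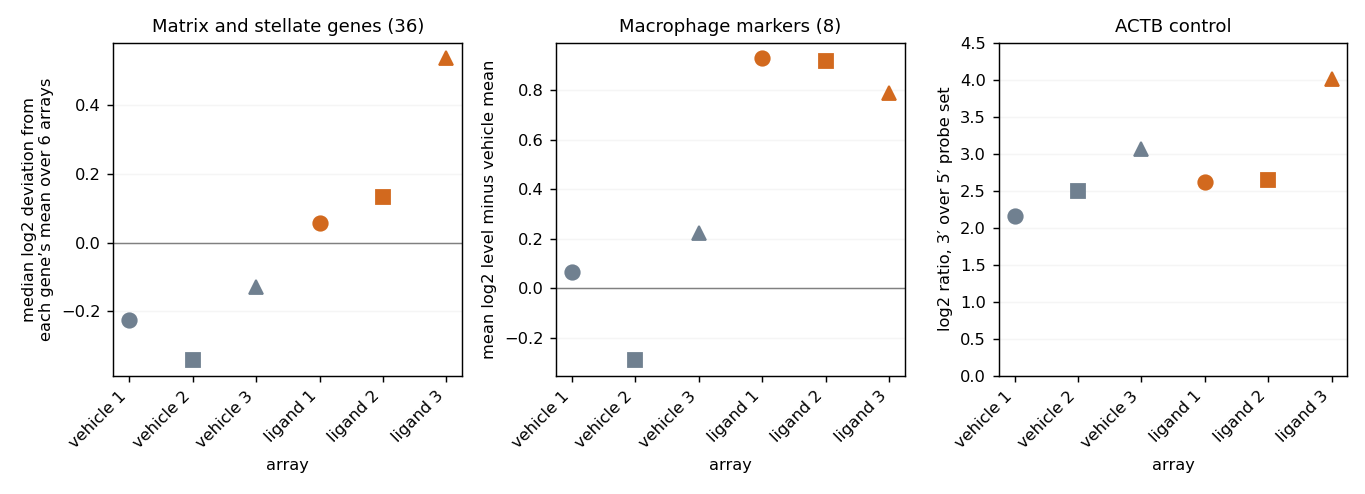
Per array, from left to right: the median log2 deviation of the 36 matrix and stellate genes from their own mean, the mean log2 level of 8 macrophage markers minus its vehicle mean, and the log2 ratio of 3′ to 5′ signal of the ACTB control. Ligand array 3 is highest in the first panel at 0.54 and in the last at 4.0, while the 3 ligand arrays lie between 0.79 and 0.93 in the middle panel.

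Genes that act with the 38 were read from lists of related pathways. None of the genes in these lists passed limma's test with p adjusted over all probe sets, as none of all tested genes did. Of all tested genes, 50.3% had a higher mean with the ligand. At an unadjusted limma p under 0.05, 3.70% of all tested genes were higher and 2.42% lower. Among further matrix genes, 12 of 18 tested of 24 were higher and 6 lower, 4 of the higher ones had an unadjusted limma p under 0.05, and the median log2 difference was 0.32. LAMA2, the alpha 2 chain of laminin, had 504, 563 and 598 with vehicle and 1137, 1311 and 1417 with the ligand. These groups were far apart and tight, with a log2 difference of 1.19 ± 0.23 (SE). EFEMP1, a fibulin, had 732, 743 and 574 against 1277, 1803 and 3747, also without overlap and with ligand array 3 highest. Its log2 difference was 1.57 ± 0.36 (SE).

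In transforming growth factor beta signalling, 11 of 15 tested of 16 genes were higher, against 50.3% of all tested genes. The median log2 difference was 0.19. Of the 15 genes, 1 was higher at an unadjusted limma p under 0.05, against 3.70% of all tested genes. That gene was TGFBR2, the receptor that binds this growth factor, with 1606, 1470 and 1417 with vehicle and 3529, 2863 and 2782 with the ligand. All ligand arrays were well above the vehicle arrays, and the log2 difference was 1.02 ± 0.20 (SE). LTBP1, which anchors latent transforming growth factor beta to the matrix, had 0.63 ± 0.35 (SE).

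The machinery that folds and processes collagen did not lean one way, with 7 of 14 tested of 15 genes higher, 7 lower and a median log2 difference of 0.029. SERPINH1, the collagen chaperone, had 517, 247 and 881 with vehicle and 926, 655 and 950 with the ligand, which overlap, and a log2 difference of 0.76 ± 0.41 (SE). PPIB, a prolyl isomerase of the same pathway, had 0.34 ± 0.19 (SE). The other matrix proteases and inhibitors had 3 of 7 tested of 10 higher and 4 lower, with a median log2 difference of -0.028. MMP14, a membrane protease that activates MMP2, had 0.49 ± 0.31 (SE) and MMP9, a gelatinase, -0.49 ± 0.34 (SE).

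Receptors for collagen and matrix had 7 of 10 tested of 11 higher, against 50.3% of all tested genes, with a median log2 difference of 0.082. DDR2, a collagen receptor of mesenchymal cells, had 0.54 ± 0.40 (SE) and ITGA5, a subunit of the fibronectin receptor, 0.20 ± 0.29 (SE). Of the 4 ligands of the PDGF receptors 3 were higher. PDGFD gave 371, 310 and 320 with vehicle and 468, 563 and 563 with the ligand, without overlap, and a log2 difference of 0.64 ± 0.26 (SE). PDGFC had 0.27 ± 0.28 (SE).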

How the data were processed

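The table holds the authors' deposited array intensity values, not log-transformed, and names MAS5 per the submitters' processing notes. The MAS5 version, scaling target and filters are not named in the sources used here. The mean signal after trimming 2% at each end was 500 on every array, so the arrays had been scaled to the same level. The platform reads human transcripts, so macaque mismatches can lower a signal, and detection calls were not used. Groups came from the array titles. After removal of 62 control probe sets, the 27304 probe sets with a mean signal of at least 129, the median of all 54675, were tested on log2(signal + 16) with limma 3.58.1 in R 4.3.3 (lmFit, then eBayes allowing for an intensity trend), two-sided, with Benjamini-Hochberg adjustment over all of them and a threshold of 0.05. This scale understates the change of dim probe sets. The 3 arrays per group limit precision: log2 differences had a median SE of 0.35.

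The 38 genes and all gene lists were chosen with earlier results of these data known. Signals on every array are given for COL1A1 and COL3A1, for each gene whose groups do not overlap and for the 2 genes of smallest p in each role group, and for further genes picked after their values were seen. Of each related list the 2 genes of smallest p are named. The code was tested on simulated data. Alternatives were other pseudocounts, scalings, filters and variance models, the replicate number as a block, each array left out, averaging the probe sets of each gene, and a threshold of 0.10. Figures used Python 3.11.15 and matplotlib 3.10.9.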

Additional observations from a re-analysis of the deposited data

How the results depend on the processing

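No gene among the 36 passed limma's test at an adjusted p of 0.05 under any alternative, or at 0.10. Under the alternatives other than leaving out an array, 29 to 31 of the 36 genes had a higher mean under the ligand. The count was 32 of 38 without the filter and 23 of 26 under the 75th percentile filter. The median log2 difference was 0.37 to 0.50, and 10 to 14 genes did not overlap between groups, the 14 without the filter. Of all tested genes, 4.70% to 6.38% were then higher and 4.92% to 5.91% lower without overlap. With each array left out in turn these values were 25 to 31, 0.30 to 0.50 and 14 to 17. With 2 arrays in a group, groups are free of overlap more often: 9.96% to 12.0% of all tested genes were higher and 9.27% to 11.5% lower in this way. Deviations from the group means correlated at r = 0.040, -0.031 and 0.070 for arrays of the same replicate number, 1 to 3. For arrays of unlike number r lay between -0.076 and 0.034. With 3 arrays per group these values cannot show whether the replicate numbers of the titles pair the arrays. With the number as a replicate block the counts were again 0, 30 and 13. Direction was less stable for genes with small differences. COL5A2, COL6A1, FN1, LAMC1, LOXL2, LRAT, MMP2, PDGFRB, TAGLN, THY1, ACTA2, TIMP3 and COL1A1 (on the mean of its probe sets) each changed sign under at least 1 alternative, and their differences in the main setting lay within 0.26 of 0. The tested COL1A1 and COL3A1 probe sets taken singly, CCN2, TGFB1 and the other genes without overlap kept their direction in every alternative where they were tested. Of the untested dim ones, COL1A1 202312_s_at was -0.10 without ligand array 1 and COL3A1 215077_at -0.13 without vehicle array 1. Leaving VWF out of the endothelial markers, chosen after seeing the data, moved the log2 ratio of their summed signal, ligand over vehicle, from 0.082 to 0.42.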
